A study of Mus musculus with 6 samples.

Results

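The genes described here encode the ephrins and their Eph receptors, the Slit ligands and their Robo receptors, and the netrins with their receptors Dcc, Neo1 and Unc5a to Unc5d. They were taken by gene symbol from the 19938 genes measured, and 37 of the 38 mouse genes whose symbols fit these families were found; Ephb2 was not analysed here. RNA came from cultures of W4, a single mouse embryonic stem cell line, after 16 days of differentiation towards neurons in a medium with B27, N2, bFGF, laminin and insulin. The VPA group had 300 uM valproate, an antiepileptic drug and histone deacetylase inhibitor, in the medium throughout; the PBS group had the solvent alone. Each group had 3 arrays, which the design text calls biological replicates. Nothing was sorted, so each array reports the mixture of cells in a whole culture, and fewer cells of a type cannot be told apart from less RNA per cell.

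These families steer growing axons and migrating cells. Netrin-1 attracts axons that carry Dcc and repels those that carry an Unc5 receptor. Slit proteins, released at the midline of the nervous system, repel axons through Robo1 and Robo2, whereas Robo3 lets commissural axons approach the midline before they cross it. Ephrins are held on the cell surface, the A class by a lipid anchor and the B class by a membrane-spanning segment, and they bind Eph receptor tyrosine kinases on the neighbouring cell, so that signals can pass into both cells. In the developing brain these contacts mostly repel, and graded ephrin and Eph levels order the maps between eye and midbrain.

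With VPA, Ntn1, Slit3, Slit1 and Robo3 rose, together with the Eph receptor genes Ephb4, Epha3 and Epha4 and the ephrin genes Efna3, Efna4 and Efnb1. Unc5d, Unc5c, Dcc, Epha2, Epha5, Epha10, Ephb1, Ephb6, Efna5 and Efnb3 fell. In all, 10 of the 37 genes rose and 10 fell at an adjusted p under 0.05, which is 54.1% of them, against 29.2% of all genes tested (13.6% higher and 15.7% lower). P-values are from limma, adjusted by the Benjamini-Hochberg method over all 19938 genes, and changes are VPA minus PBS on the log2 scale with the moderated standard error (SE). The 3 VPA values and the 3 PBS values did not overlap for 24 of the 37 (64.9%), 11 upward and 13 downward, against 44.0% of all genes (20.2% upward and 23.8% downward). The median change was -0.03 and the median absolute change 0.25, against 0.00 and 0.12 over all genes. These values for all genes include many dim genes, which are counted below. Among the ligands 6 of 15 rose and 2 fell; among the receptors 4 of 22 rose and 8 fell. Whether ligands and receptors differ in this was not tested.

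**Figure D1:**
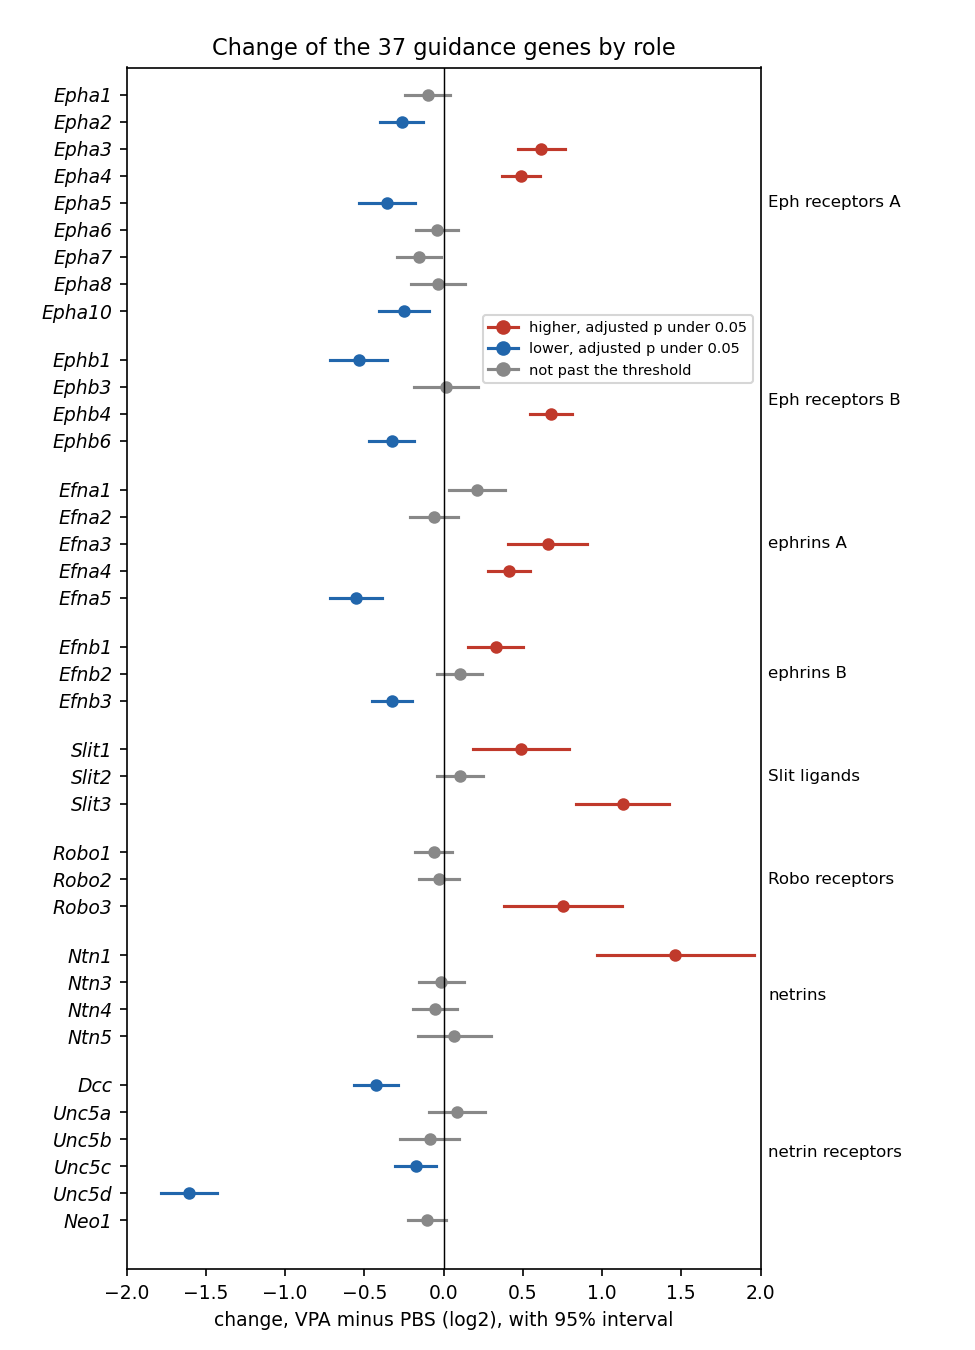
Change of each of the 37 genes (x axis, VPA minus PBS, log2; bars, 95% interval of the limma fit), grouped by role down the page. Red genes were higher and blue genes lower with VPA at an adjusted p under 0.05; Ntn1 at 1.46 and Unc5d at -1.61 lie farthest from 0.

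Levels are given as the authors' normalized log2 signal. The 95th percentile of 1015 olfactory receptor genes, mostly silent outside the nose, was 6.158 on this scale and served as a gauge of background. Epha1 and Ntn5 lay below it in both groups and were not told apart from background; the other 35 genes lay above it in both groups. Of all 19938 genes, 5741 had both means below the gauge, against 2 of the 37 members. A fit without those dim genes called 5610 genes, against 5825 in the fit of all genes. The share called was thus above 29.2% among genes at or above the gauge, so the 54.1% of members stands beside a low comparison. Overlap and median change were not worked out for genes above the gauge alone. Array medians lay between 6.99 and 7.03. VPA replicate 1 stood apart from its group: over all genes, its median absolute difference from VPA replicates 2 and 3 was 0.12 and 0.13, against 0.07 between those replicates and 0.06 to 0.07 between PBS arrays. Several results below are also given without this array.

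**Figure D2:**
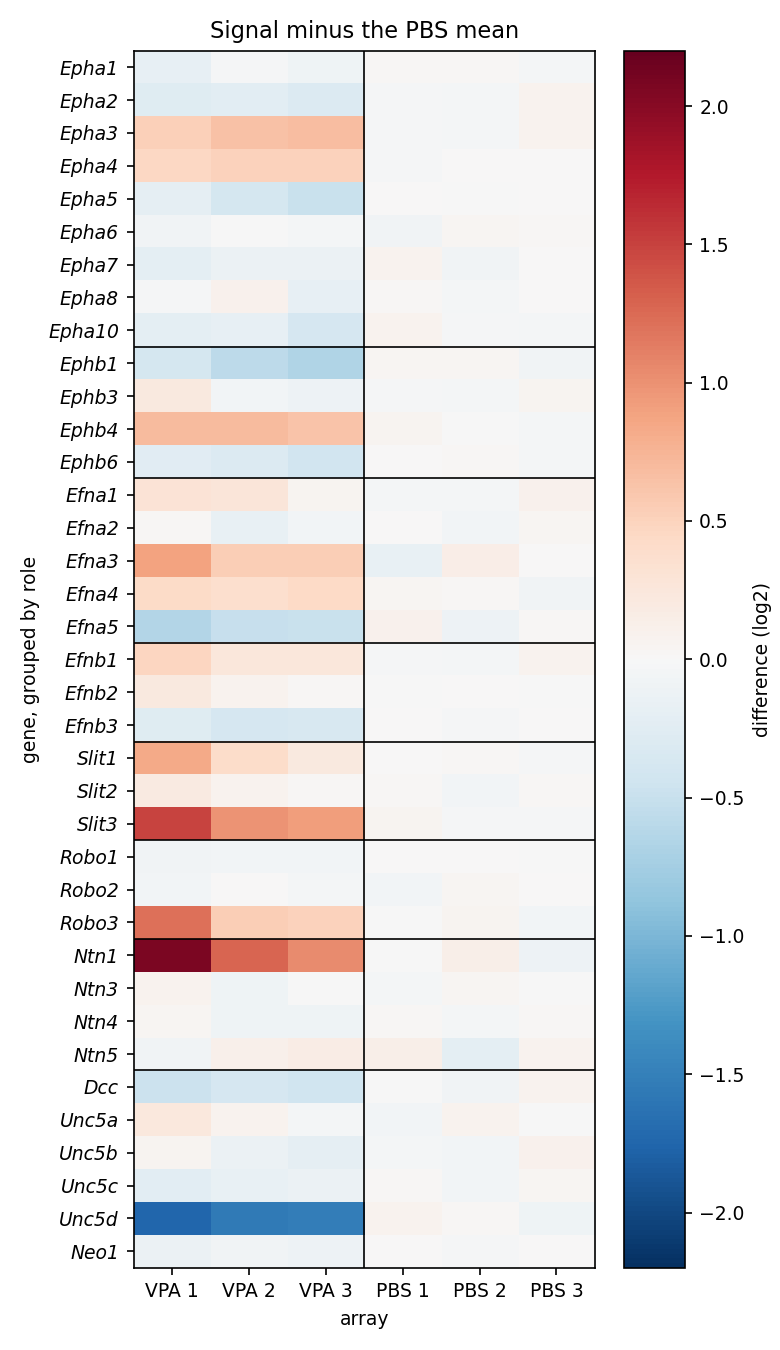
Signal of each gene on each array minus its PBS mean (colour, log2 difference), with the VPA arrays left and the PBS arrays right and genes grouped by role. Ntn1, Slit3, Robo3 and Slit1 are darkest red on the array of VPA replicate 1, and Unc5d is blue on all 3 VPA arrays.

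In the netrin family Ntn1 rose, while Unc5d, Dcc and Unc5c among the receptor genes fell. Ntn1, which encodes netrin-1, read 10.15, 9.37 and 9.12 on the arrays of VPA replicates 1 to 3, against 8.07, 8.21 and 7.97 on those of PBS replicates 1 to 3. Every VPA value lay above every PBS value, and VPA replicate 1 lay far above the other VPA arrays. The change was 1.46 (SE 0.22, adjusted p = 0.00117), or 2.75-fold, the 85th largest rise among all genes. Without VPA replicate 1 it was 1.16 (adjusted p = 4.86e-05). The other netrin genes did not pass: Ntn3 changed by -0.01 (95% interval -0.16 to 0.13), Ntn4, a netrin of basement membranes, by -0.05 (-0.19 to 0.09), and Ntn5, below the background gauge, by 0.07 (-0.16 to 0.30).

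Of the netrin receptor genes, 3 of 6 fell, beside 15.7% of all genes, and the other 3 did not pass. Unc5d, whose product mediates repulsion of migrating cortical neurons and also binds the adhesion protein Flrt2, read 7.61, 7.81 and 7.83 with VPA, against 9.43, 9.38 and 9.26 with PBS. The groups lay far apart, and VPA replicate 1 was the lowest array. The change was -1.61 (SE 0.08, adjusted p = 2.79e-06), so that VPA cultures had 0.328 times the PBS signal, and it was the 18th largest fall of all genes. A second probe set of Unc5d, not used in that fit, differed by -1.39, with 7.94, 7.64 and 7.80 in VPA arrays, against 9.19, 9.20 and 9.15 in PBS arrays. Both probe sets thus gave separate groups in the same direction, though VPA replicate 1 was the highest VPA array in the second probe set.

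Dcc, the attractive netrin receptor, read 10.85, 10.95 and 10.88 with VPA, against 11.32, 11.25 and 11.40 with PBS, a change of -0.43 (SE 0.06, adjusted p = 0.00102). The groups did not overlap. Unc5c read 9.23, 9.31 and 9.33 with VPA, against 9.49, 9.41 and 9.50 with PBS, a change of -0.18 (SE 0.06, adjusted p = 0.0476). Its groups were separate too, but the call stood close to the threshold and did not hold under 9 of 17 alternatives, where the adjusted p reached 0.162. Neo1, a receptor for netrins and for repulsive guidance molecules, changed by -0.11 (-0.22 to 0.01). Unc5a changed by 0.08 (-0.09 to 0.26) and Unc5b by -0.09 (-0.27 to 0.10).

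**Figure D3:**
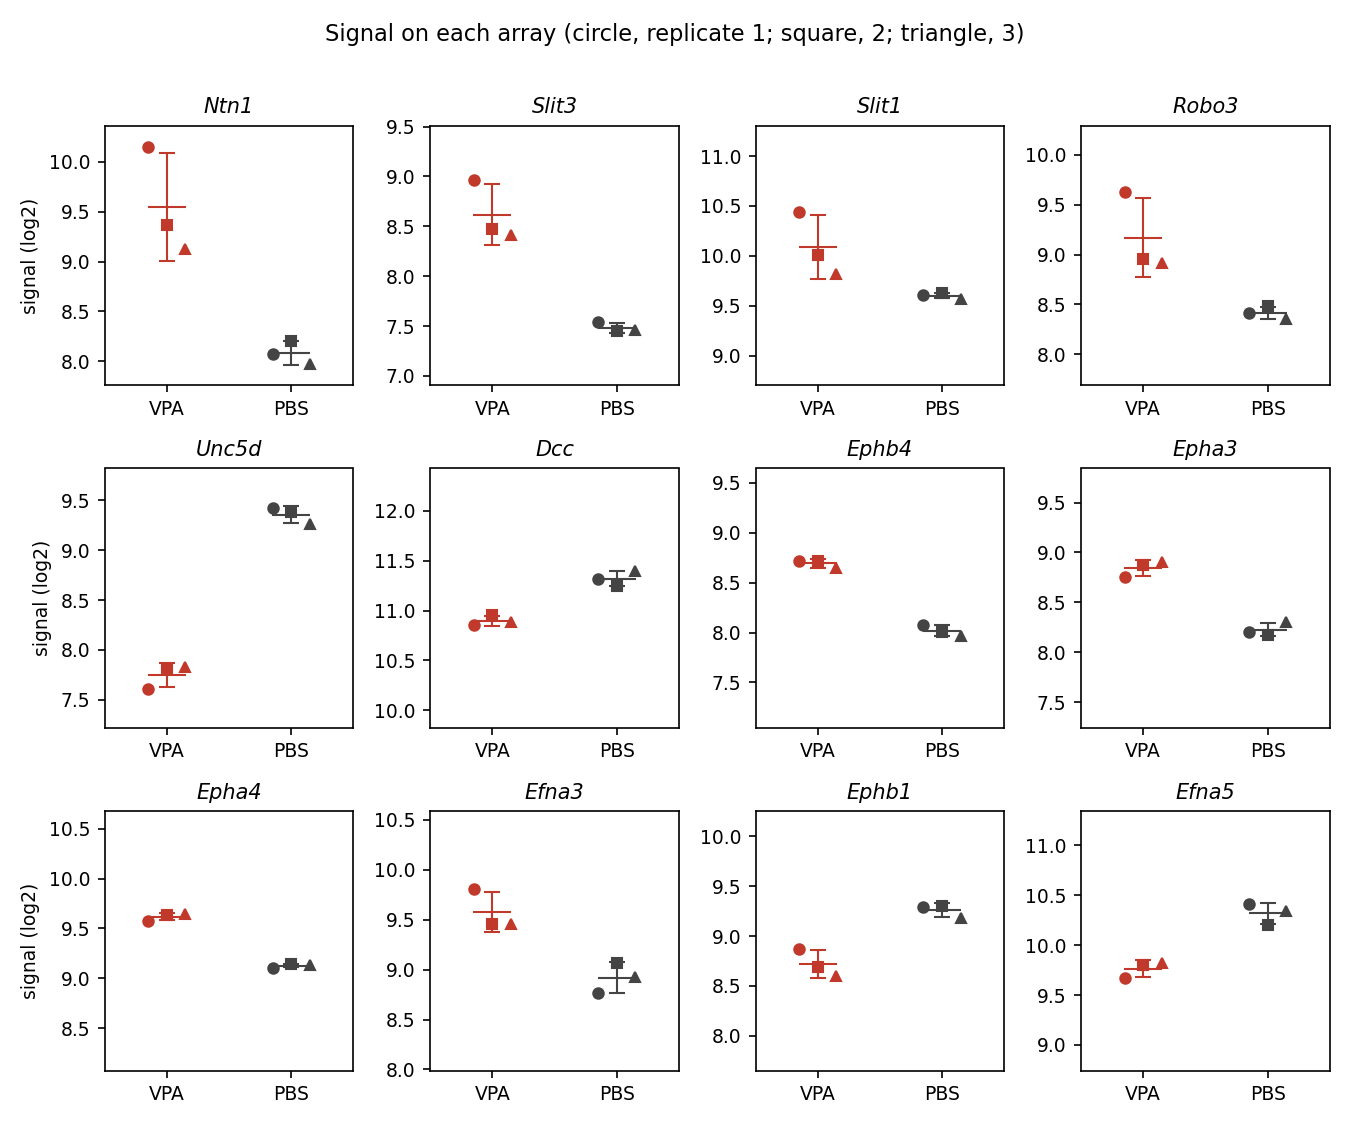
Log2 signal on each array for 12 genes, VPA (red) left and PBS (grey) right in each panel. Symbols mark the replicate number, bars the mean and SD of 3 arrays, and every panel spans the same range of log2 units; the groups do not overlap in any of the 12 panels.

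Of the Slit genes, 2 of 3 rose, beside 13.6% of all genes. Slit3 read 8.96, 8.47 and 8.41 with VPA, against 7.54, 7.45 and 7.46 with PBS. All VPA values lay above all PBS values, and VPA replicate 1 was the highest. The change was 1.13 (SE 0.13, adjusted p = 0.000268), or 2.19-fold, and 0.96 without VPA replicate 1 (adjusted p = 1.09e-05). Slit1, the Slit most restricted to the nervous system, read 10.44, 10.01 and 9.81 with VPA, against 9.61, 9.62 and 9.57 with PBS. The groups were separate, with the VPA arrays spread over a wider range than the PBS arrays. The change of Slit1 was 0.49 (SE 0.13, adjusted p = 0.0244) and 0.31 without VPA replicate 1 (adjusted p = 0.00645); the call was lost without PBS replicate 1, 2 or 3, where the adjusted p reached 0.0766. Slit2 changed by 0.10 (-0.04 to 0.25).

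Among the Robo genes, Robo3 alone passed. It read 9.63, 8.96 and 8.92 with VPA, against 8.41, 8.48 and 8.36 with PBS, a change of 0.75 (SE 0.16, adjusted p = 0.00835). VPA replicate 1 was again the highest, and without it the change was 0.52 (adjusted p = 0.000227). Robo1 changed by -0.06 (-0.18 to 0.05) and Robo2 by -0.03 (-0.16 to 0.10), with SDs of 0.01 and 0.03 in the VPA group and 0.01 and 0.05 in the PBS group. Robo1 and Robo2 lie next to each other on chromosome 16 with 0 protein-coding genes between them, and Robo3 likewise has Robo4, the endothelial Robo gene, as its neighbour on chromosome 9. Robo4 had means of 6.13 with VPA and 5.99 with PBS, both below the background gauge.

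The sequences before the start sites of Slit3 and Robo3 are shown because these were the Slit and Robo genes with the largest rises. They are the 250 bases before the RefSeq start site lying farthest upstream (build GRCm38.p6), written 5′ to 3′ on the strand of the gene, with GC boxes (GGGCGG) and CCAAT boxes (CCAAT) of either strand in capitals. Overlapping boxes run together.
Slit3, chr11:35121206-35121455, plus strand: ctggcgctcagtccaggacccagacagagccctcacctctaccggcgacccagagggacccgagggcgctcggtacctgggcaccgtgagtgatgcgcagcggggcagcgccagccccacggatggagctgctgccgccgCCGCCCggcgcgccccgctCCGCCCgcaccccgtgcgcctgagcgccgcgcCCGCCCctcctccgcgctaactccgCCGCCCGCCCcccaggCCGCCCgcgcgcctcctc
Robo3, chr9:37433176-37433425, minus strand: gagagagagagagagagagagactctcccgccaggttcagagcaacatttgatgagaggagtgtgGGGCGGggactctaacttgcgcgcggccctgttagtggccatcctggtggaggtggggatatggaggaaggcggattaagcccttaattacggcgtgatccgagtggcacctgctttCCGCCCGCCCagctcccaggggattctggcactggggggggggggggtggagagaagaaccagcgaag

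The Slit3 window held 6 GC boxes in a stretch of 78.8% G and C, and that of Robo3 held 3 at 61.2%; neither held a CCAAT box. Such windows were found for 32 of the 37 genes; Dcc, Efnb3, Ntn1, Slit1 and Unc5d had none in the table. At least 1 GC box stood in 24 of 32 windows (75.0%), against 46.0% of the 15614 windows of all measured genes, while the median share of G and C was 65.2% against 56.4%. A GC box stood in 5 of 8 windows of genes that rose, 5 of 7 of genes that fell and 14 of 17 of genes that did not pass. A CCAAT box stood in 34.4% of windows, against 35.6% for all genes, and a TATA box (TATAAA, either strand) in 6.25%, against 11.2%. The homeodomain core TAATTA stood in 3 of 32 windows, those of Robo3, Epha5 and Efna1, or 9.38%, against 4.12%. These matches are descriptions of the letters in the windows.

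Among the A-class Eph receptors, 2 of 9 rose and 3 fell, beside 13.6% and 15.7% of all genes. Epha3 read 8.75, 8.87 and 8.91 with VPA, against 8.20, 8.18 and 8.30 with PBS, a change of 0.62 (SE 0.07, adjusted p = 0.00018). Epha4, a receptor that binds ephrins of both classes and guides motor and corticospinal axons, read 9.58, 9.63 and 9.64 with VPA, against 9.11, 9.14 and 9.14 with PBS, a change of 0.49 (SE 0.05, adjusted p = 0.000201). Both genes had separate groups with little spread, and in both VPA replicate 1 was the lowest of the VPA arrays. Epha5, a receptor of retinal and forebrain axons, read 8.36, 8.18 and 8.06 with VPA, against 8.57, 8.55 and 8.57 with PBS, a change of -0.36 (SE 0.08, adjusted p = 0.00836).

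Epha2, better known from epithelia, read 6.45, 6.48 and 6.42 with VPA, against 6.69, 6.67 and 6.80 with PBS, a change of -0.26 (SE 0.06, adjusted p = 0.0093). Epha10, which encodes a receptor without kinase activity, read 7.98, 8.01 and 7.83 with VPA, against 8.28, 8.16 and 8.14 with PBS, a change of -0.25 (SE 0.07, adjusted p = 0.0244). The groups were separate for both genes. A second probe set of Epha10 differed by -0.29, but the call of Epha10 was lost without VPA replicate 3 or without PBS replicate 1, 2 or 3, where the adjusted p reached 0.103. Epha7, like Epha5 a receptor for A-class ephrins, changed by -0.15 (-0.29 to -0.01, adjusted p = 0.094), with separate groups. Epha6 changed by -0.04 (-0.17 to 0.09), Epha8 by -0.03 (-0.20 to 0.14) and Epha1, below the gauge, by -0.10 (-0.24 to 0.04).

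Among the B-class receptors, 1 of 4 rose and 2 fell, beside 13.6% and 15.7% of all genes. Ephb4, the receptor of venous endothelium and partner of ephrin-B2, read 8.72, 8.72 and 8.64 with VPA, against 8.08, 8.004 and 7.97 with PBS. These arrays differed little within each group, and the change of 0.68 (SE 0.06, adjusted p = 5.34e-05) was 0.66 without VPA replicate 1. Ephb1, which directs retinal axons to the same side of the brain, read 8.87, 8.69 and 8.60 with VPA, against 9.30, 9.30 and 9.18 with PBS, a change of -0.54 (SE 0.08, adjusted p = 0.00106); its second probe set differed by -0.60. Ephb6, a receptor without kinase activity, read 8.30, 8.24 and 8.12 with VPA, against 8.56, 8.58 and 8.51 with PBS, a change of -0.33 (SE 0.06, adjusted p = 0.00447). In Ephb1 and Ephb6, VPA replicate 1 lay nearest to the PBS arrays. Ephb3 changed by 0.02 (-0.19 to 0.22).

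Of the A-class ephrins, 2 of 5 rose and 1 fell, beside 13.6% and 15.7% of all genes. Efna3 read 9.81, 9.46 and 9.46 with VPA, against 8.76, 9.07 and 8.93 with PBS, a change of 0.66 (SE 0.11, adjusted p = 0.00223). VPA replicate 1 was the highest, and the change without it was 0.54 (adjusted p = 0.00139). Efna4 read 8.67, 8.62 and 8.68 with VPA, against 8.29, 8.28 and 8.17 with PBS, a change of 0.41 (SE 0.06, adjusted p = 0.000888). Efna1, which is also made by vessels and epithelia, read 7.12, 7.09 and 6.88 with VPA, against 6.77, 6.78 and 6.91 with PBS. Its groups overlapped, and the change of 0.21 (SE 0.08, adjusted p = 0.0723) did not pass. Efna1, Efna3 and Efna4 follow one another on chromosome 3 with 0 other protein-coding genes between them.

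Efna5, the graded repulsive ephrin of the midbrain, lies on chromosome 17 and had the opposite sign. It read 9.67, 9.81 and 9.82 with VPA, against 10.41, 10.20 and 10.34 with PBS, a change of -0.55 (SE 0.07, adjusted p = 0.000612). The groups were far apart for their spread. Efna2 changed by -0.06 (-0.22 to 0.09). The windows before the 3 neighbouring genes and before Efna5 are shown so that members that lie together can be set beside one that fell; the build, strand and capitals are as for Slit3.
Efna1, chr3:89280952-89281201, minus strand: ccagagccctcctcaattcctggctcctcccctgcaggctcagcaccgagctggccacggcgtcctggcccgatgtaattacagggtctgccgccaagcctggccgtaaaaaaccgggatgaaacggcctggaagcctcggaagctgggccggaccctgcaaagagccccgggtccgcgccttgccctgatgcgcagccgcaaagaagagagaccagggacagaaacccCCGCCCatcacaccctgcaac
Efna3, chr3:89322940-89323189, minus strand: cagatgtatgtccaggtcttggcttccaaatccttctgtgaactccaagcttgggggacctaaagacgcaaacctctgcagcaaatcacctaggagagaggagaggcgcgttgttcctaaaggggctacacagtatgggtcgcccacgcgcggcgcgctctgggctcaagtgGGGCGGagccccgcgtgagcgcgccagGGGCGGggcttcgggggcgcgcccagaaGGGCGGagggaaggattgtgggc
Efna4, chr3:89338029-89338278, minus strand: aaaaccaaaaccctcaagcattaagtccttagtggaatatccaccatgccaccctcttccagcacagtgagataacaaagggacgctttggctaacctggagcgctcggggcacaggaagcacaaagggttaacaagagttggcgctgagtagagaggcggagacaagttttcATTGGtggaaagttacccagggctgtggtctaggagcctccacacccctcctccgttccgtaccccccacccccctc
Efna5, chr17:62881318-62881567, minus strand: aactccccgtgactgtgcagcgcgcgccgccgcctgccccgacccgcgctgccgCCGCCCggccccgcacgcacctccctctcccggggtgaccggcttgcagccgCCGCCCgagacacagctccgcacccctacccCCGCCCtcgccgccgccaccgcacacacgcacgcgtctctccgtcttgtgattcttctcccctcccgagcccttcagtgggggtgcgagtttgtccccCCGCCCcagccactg

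The windows of the neighbours were unlike one another. That of Efna3 held 3 GC boxes and 19 CpG, that of Efna1 held 1 GC box and 16 CpG, and that of Efna4 held no GC box, 1 CCAAT box and 7 CpG. The Efna5 window held 4 GC boxes and 32 CpG. The median over all measured genes was 11 CpG in a window.

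Of the B-class ephrins, 1 of 3 rose and 1 fell, beside 13.6% and 15.7% of all genes. Efnb1, an X-linked gene needed in craniofacial development, read 8.95, 8.73 and 8.72 with VPA, against 8.44, 8.43 and 8.54 with PBS, a change of 0.33 (SE 0.08, adjusted p = 0.011). The groups were separate, but the call was lost without PBS replicate 1 or 2, where the adjusted p reached 0.0512. Efnb3, a midline ephrin of the spinal cord, read 9.21, 9.12 and 9.13 with VPA, against 9.50, 9.45 and 9.49 with PBS, a change of -0.33 (SE 0.06, adjusted p = 0.00234). Efnb2, the arterial partner of Ephb4, read 9.33, 9.20 and 9.15 with VPA, against 9.12, 9.14 and 9.11 with PBS. Its values did not overlap, yet the change of 0.10 (-0.04 to 0.24, adjusted p = 0.275) did not pass.

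The 17 genes that did not pass had changes between -0.15 (Epha7) and 0.21 (Efna1), and their 95% intervals together ran from -0.29 to 0.39. An unadjusted p under 0.05 was found for Efna1 and Epha7 among them, and separate groups for Efnb2, Epha7, Neo1 and Robo1. Of the 20 that passed, 6 rose by a factor of 1.5 or more, namely Ntn1, Slit3, Robo3, Ephb4, Efna3 and Epha3, and only Unc5d fell as far; over the whole table, changes by a factor of 1.5 or more passed upward for 695 genes and downward for 432. At a factor of 2 or more, Ntn1 and Slit3 rose and Unc5d fell, beside 231 genes higher and 100 lower over the whole table.

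Ntn1, Slit3, Slit1 and Robo3 were the only members whose VPA arrays spanned more than 0.5 log2 units, and in all 4 VPA replicate 1 was the highest array. It exceeded the mean of VPA replicates 2 and 3 by 0.91 for Ntn1, 0.69 for Robo3 and 0.53 for Slit3 and Slit1 each. The widest PBS range of any member was 0.34, for Ntn5. Leaving out VPA replicate 1 kept 19 of the 20 calls, 10 higher and 9 lower, the exception being Unc5c; 19.8% of all genes were then higher and 21.2% lower. Slit1 was the only called member whose log2 change moved by over 1.5 times.

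**Figure D4:**
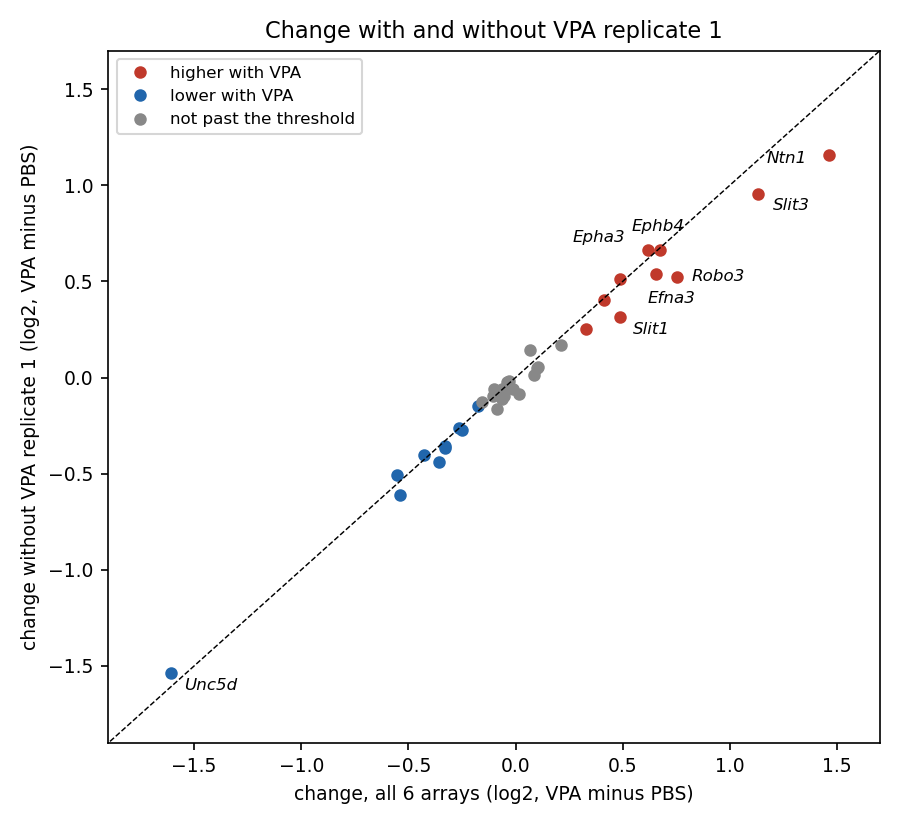
Change of each of the 37 genes with all 6 arrays (x axis) and without VPA replicate 1 (y axis), both VPA minus PBS on the log2 scale; the dashed line marks equal values. Ntn1, Slit3, Robo3 and Slit1 fall below the line, at 1.16, 0.96, 0.52 and 0.31 without that array.

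The floor plate, the ventral midline of the neural tube, is a source of netrin and Slit in the embryo. Of the 5 measured floor plate genes 4 rose, beside 13.6% of all genes. The list's summed signal was 10.03 to 10.50 (log2) in VPA arrays, against 9.59 to 9.71 in PBS arrays. Spon1, which encodes F-spondin, read 9.69, 9.23 and 8.98 with VPA, against 8.50, 8.65 and 8.52 with PBS, a change of 0.75 (SE 0.15, adjusted p = 0.00593). Shh had means of 7.46 with VPA and 6.93 with PBS, a change of 0.53 (SE 0.09, adjusted p = 0.00207). Foxa2, the defining transcription factor, had means of 7.02 with VPA and 6.84 with PBS and did not pass (adjusted p = 0.0724). VPA replicate 1 minus the mean of VPA replicates 2 and 3 was 0.58 in Spon1, 0.52 in Foxa1 and 0.25 in Shh. It was 0.04 in Foxa2 and -0.06 in Corin, so VPA replicate 1 was the highest VPA array in 3 of the 5 genes. This was not particular to the floor plate list. VPA replicate 1 was also the highest VPA array in 4 of 4 neural crest and Schwann cell genes and 6 of 9 endothelial genes. The median difference was 0.25 in floor plate genes, 0.21 in neural crest and Schwann cell genes and 0.11 in endothelial genes. It was 0.03 in fibroblast and mesenchyme genes and -0.02 in muscle genes. Without VPA replicate 1 the changes of Spon1 and Shh were 0.55 (adjusted p = 0.00119) and 0.44 (adjusted p = 0.00144). In that fit 4 of the 5 genes again rose, beside 19.8% of all genes. The part of these cells in the rises of Ntn1, Slit1, Slit3 and Robo3 was not tested.

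Markers of other cell types also differed between the groups. Over all genes, 13.6% were higher and 15.7% lower with VPA in the fit of all 6 arrays. Of the fibroblast and mesenchyme genes 10 of 10 rose, with a summed signal of 13.30 to 13.42 in VPA arrays, against 11.39 to 11.64 in PBS arrays; Col1a1 had means of 9.81 with VPA and 8.71 with PBS. Endothelial genes rose in 8 of 9 cases, with sums of 10.01 to 10.25 in VPA arrays, against 9.24 to 9.35 in PBS arrays; Cdh5 had means of 8.07 with VPA and 6.09 with PBS, the PBS value below the background gauge. Neural crest and Schwann cell genes rose in 4 of 4 cases (10.46 to 10.68 with VPA, 9.74 to 9.83 with PBS), and Sox10 had means of 7.99 with VPA and 7.30 with PBS. Muscle genes rose in 5 of 6 cases (11.09 to 11.78 with VPA, 9.42 to 9.49 with PBS). Of the neuronal markers 7 of 9 fell (14.26 to 14.28 with VPA, 14.50 to 14.56 with PBS), and all 9 lay above the gauge in both groups. Tubb3 had means of 11.33 with VPA and 11.60 with PBS. Elavl4 changed by 0.16 in the other direction, with separate groups, and did not pass (limma, adjusted p = 0.108). The calls of Map2, Snap25, Syt1 and Elavl3 were each lost when some single arrays were left out. Of the progenitor and radial glia markers 3 of 8 rose, with sums that overlapped (14.42 to 14.48 with VPA, 14.45 to 14.48 with PBS). These sums rest mostly on the brightest genes, Vim (means 13.03 with VPA, 13.09 with PBS) and Fabp7 (13.20 and 13.23), which did not pass. The mean of the 8 log2 signals did not overlap, at 10.25 to 10.31 in VPA arrays, against 10.05 to 10.13 in PBS arrays. Without VPA replicate 1, 3 rose and 1 fell, beside 19.8% of all genes higher and 21.2% lower. Nes had means of 8.48 with VPA and 8.10 with PBS.

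None of 3 microglial and none of 3 pluripotency genes passed by limma; the unadjusted p was 0.0406 for Cx3cr1 and at least 0.105 for the other 5 genes. Without VPA replicate 1, Cx3cr1 passed, with a change of 0.19 (adjusted p = 0.029). The other microglial genes, Aif1 and Csf1r, lay below the gauge in both groups. The pluripotency genes Pou5f1, Nanog and Zfp42 lay below the gauge in both groups. Of 4 astrocyte genes, Aldh1l1 and Gfap fell, while Aqp4 and S100b lay below the gauge in both groups; without VPA replicate 1 the call of Gfap was lost (adjusted p = 0.0608). Several guidance genes are expressed outside neurons, among them Ephb4 in vessels and Slit3 and Epha3 in mesenchyme, and the part of these cell types in the changes of the members was not tested.

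Of 16 measured genes for other ligands and co-receptors of these pathways, 2 rose and 6 fell, with a median change of -0.09. Dscam, a cell adhesion molecule that can act as a netrin receptor, read 9.56, 9.30 and 9.25 with VPA, against 10.74, 10.59 and 10.63 with PBS, a change of -1.29 (SE 0.09, adjusted p = 1.53e-05). Its paralogue Dscaml1 changed by -0.92 (SE 0.09, adjusted p = 8.74e-05), so that both Dscam genes fell. Prrg4, which encodes a membrane protein, rose by 0.73 (SE 0.07, adjusted p = 7.24e-05), and Lrrc4c, the netrin-G1 ligand, changed by -0.40 (SE 0.09, adjusted p = 0.0117). Flrt2, the partner of Unc5d, rose by 0.38 (SE 0.06, adjusted p = 0.00186). Without VPA replicate 1, 2 of the 16 rose and 8 fell, beside 19.8% of all genes higher and 21.2% lower in that fit.

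Of 32 measured signal transducers, 4 rose and 8 fell, with a median change of -0.07. Srgap2, which encodes a GTPase-activating protein that binds Robo1, read 9.31, 9.23 and 9.16 with VPA, against 9.95, 9.89 and 9.87 with PBS, a change of -0.67 (SE 0.06, adjusted p = 7.52e-05). Trim9, a ubiquitin ligase that binds Dcc, changed by -0.53 (SE 0.08, adjusted p = 0.000978), and Chn2, a GTPase-activating protein for Rac, by -0.46 (SE 0.06, adjusted p = 0.000383). Dock1, an activator of Rac that acts downstream of Dcc, rose by 0.54 (SE 0.06, adjusted p = 0.000191). Without VPA replicate 1, 4 of the 32 rose and 14 fell, beside 19.8% of all genes higher and 21.2% lower in that fit. Calls were made for 8 of the 16 other ligands and co-receptors and 12 of the 32 transducers (37.5%), beside 29.2% of all genes. Both means lay below the gauge for 1 of these 16 and 0 of these 32, but for 5741 of all 19938 genes. The 29.2% is lowered by those dim genes, so neither list is shown to exceed genes of like level.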

How the data were processed

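Expression was measured on 6 arrays by the Affymetrix whole transcript assay, per the labels' protocols. The authors deposited normalized log2 signals for 35556 probe sets; base 2 was inferred from the range, 2.50 to 13.89. How they were background-corrected, summarized and normalized is not given in the sources used here; the submitters' processing notes name Partek 6.5 and mm9 without a role. Normalization removes overall differences in RNA content, so changes are relative to other genes. For arrays, their number limits the precision.

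GEO's platform annotation gave exactly 1 symbol for 21789 probe sets, several for 1621 and none for 12146; 21698 of the single-symbol probe sets matched a RefSeq table (GRCm38.p6) by Entrez ID, which updated symbols. The probe set with the highest mean over the 6 arrays stood for a gene, giving 19938 genes. Ephb1, Epha10 and Unc5d had more than 1 probe set. The members, lists and markers were chosen with earlier results of these data known.

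VPA was compared with PBS by limma 3.58.1 in R 4.3.3 (lmFit, eBayes, no covariates) over all genes, with Benjamini-Hochberg adjustment. The fit was tested on simulated data. An exact permutation test of 3 against 3 cannot go below a two-sided p of 0.1, so none was run. Every member was to be described, those past the threshold array by array. From the pathway lists the largest changes past the threshold, up to 4 a list, were to be named; Flrt2 was added as the partner of Unc5d after its value was seen, and Robo4 as the neighbour of Robo3. Tubb3, Col1a1, Cdh5, Foxa2, Shh, Sox10 and Nes were to be named in any case. Spon1, Foxa1, Corin, Vim, Fabp7, Map2, Snap25, Syt1, Elavl3, Elavl4 and the astrocyte, microglial and pluripotency genes were named after their values were seen. Sequences are RefSeq's. Same-numbered VPA and PBS arrays did not deviate together (correlations of -0.02, -0.01 and 0.02 for replicates 1 to 3), so the numbers were not taken as pairs. The alternatives are listed with their effect in the closing section.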

Additional observations from a re-analysis of the deposited data

How the results depend on the processing

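Over 17 alternatives at an adjusted p under 0.05 (quantile normalization, median centring, leaving out dim genes below the 30th percentile, the 50th percentile or the olfactory gauge, 2 other variance models, array weights, the replicate block, averaged probe sets, all probe sets, and leaving out each array), 16 of the 20 calls held wherever the gene was tested (the 50th percentile left out Epha2) and no called change turned its sign. Epha10, Slit1 and Efnb1 lost theirs without the arrays named with them. Unc5c lost its call without any 1 array, after quantile normalization and median centring, and with the replicate block, which left 10 members higher, 9 lower and 5410 genes past the threshold and changed no other call. Efna1 passed with array weights and without VPA replicate 3. Leaving out 1 array gave 8 to 11 members higher and 8 to 9 lower, and 3836 to 8173 genes past the threshold, against 5825 with all arrays; without PBS replicate 2 there were 3836. Array weights gave 8917 genes and an adjusted p under 0.01 gave 3370, with 8 members higher and 8 lower at that threshold. The cause of these shifts was not tested. Signals below the olfactory gauge limit what can be said of Epha1 and Ntn5. The list counts that leave out VPA replicate 1, and the list values that set it against the other VPA arrays, were chosen after seeing the data.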
